A study of Homo sapiens with 4 samples.

Results

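The receptors of the EGFR family, their ligands and the protease that frees the ligands were followed through a TIA1 ribonucleoprotein immunoprecipitation (RIP) read on microarrays. The group holds the receptors EGFR, ERBB2 and ERBB3, the ligands AREG, EREG, HBEGF and TGFA, and the sheddase ADAM17. It was chosen by gene symbol, as the probes whose transcript identifier belongs to one of these genes. These 8 genes are 8 of 24154 genes with a symbol on the array. They have 14 probes, of which 13 passed the detection filter, and all 8 genes were among the 13039 genes kept. The probe that did not pass was the third probe of ERBB3, which was not well above background on any array.

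All arrays carried RNA from KYSE180, an established cell line of human esophageal squamous cell carcinoma with no added treatment. The TIA1 RIP group (n = 2 arrays) holds RNA recovered with a rabbit anti-TIA1 antibody from cytoplasmic lysates, and the total RNA group (n = 2 arrays) holds RNA labelled as input. Whether this input was cytoplasmic or whole-cell RNA is not given in the sources used here, so a difference between cell compartments cannot be told apart from recovery with TIA1. Each array received Cy3-labelled cRNA made from 0.2 ug of RNA, and RNA from control IgG immunoprecipitates was not analysed here. The sources used here do not say whether replicates came from separate cultures, so the p-values measure only the spread between these arrays, which may be technical.

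TIA1 is an RNA-binding protein that prefers U-rich and AU-rich stretches, can repress translation, and gathers with stalled mRNAs in stress granules. The EGFR family are receptor tyrosine kinases that pair on binding a ligand and drive proliferation of squamous epithelium. Their ligands are made as membrane-anchored precursors and cut free by ADAM17, and several ligand mRNAs are short-lived immediate early transcripts with AU-rich 3′ UTRs, which are bound by proteins such as TIA1. The comparison therefore asked whether the ligand mRNAs and the receptor mRNAs stood apart in the TIA1 immunoprecipitates.

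The 3′ UTRs of the group differed in the AUUUA pentamer, the core of AU-rich elements. The windows below are the 30 bases of each 3′ UTR with the most pentamers, and they are shown because this feature separates the ligands from ERBB2. They come from GENCODE transcripts on GRCh37, are written 5′ to 3′ on the transcript strand with T for U, and have each ATTTA in capitals.
AREG, chr4:75320649-75320678, plus strand: aagttgtaaataATTTATTTAatATTTAat
EREG, chr4:75253087-75253116, plus strand: ATTTAtttcATTTAcaaaagATTTAttgta
HBEGF, chr5:139713251-139713280, minus strand: tATTTAttttattctatgtatgttaATTTA
TGFA, chr2:70674610-70674639, minus strand: aaaaggttaatATTTAatgttttaATTTAt
ADAM17, chr2:9629728-9629757, minus strand: aaaatatatatctaaATTTAgaaatcattt
EGFR, chr7:55277931-55277960, plus strand: atttttatATTTAcaattgatatgcATTTA
ERBB3, chr12:56496847-56496876, plus strand: tattgtaaggtgccaagaaaaactgATTTA

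All these windows lie in 3′ UTRs. The annotated 3′ UTR of ERBB2 (chr17:37856317-37884911, plus strand, for the whole transcript) has 614 nucleotides and no AUUUA, so no window is shown for it. Overlapping pentamers were each counted, on the transcript strand only. AREG had 4 pentamers in a 3′ UTR of 265 nucleotides, or 15.1 per kb, and 99.6% of the 19085 3′ UTRs compared had a lower density. EREG had 20 pentamers in 3941 nucleotides (5.07 per kb), TGFA had 13 in 3575 (3.64 per kb) and HBEGF had 5 in 1456 (3.43 per kb). These densities exceeded those of 91.0%, 80.7% and 78.6% of 3′ UTRs, so all the ligands were on the dense side by this measure. ADAM17, with 7 pentamers in 1691 nucleotides (4.14 per kb), was denser than HBEGF and TGFA. EGFR had 9 in 6011 nucleotides (1.50 per kb) and ERBB3 had 2 in 1450 (1.38 per kb), both near the median of 1.53 per kb over all 3′ UTRs.

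Other measures of the sequence split the group less cleanly. The longer motif UUAUUUAUU, searched on the transcript strand and overlapping the pentamer, occurred once each in EREG and TGFA and in no other member, against 8.48% of all 3′ UTRs with at least 1. Of all 3′ UTRs, 67.9% held at least 1 AUUUA, so its mere presence is common. The U content was 37.7% in AREG, 34.6% in ADAM17 and 34.4% in EREG. HBEGF at 28.5% and TGFA at 29.9% lay beside EGFR at 28.1% and ERBB3 at 27.9%, around the median of 29.4%, and ERBB2 was lowest at 24.1%. By U content, then, HBEGF and TGFA lay closer to EGFR and ERBB3 than to AREG and EREG. Runs of at least 5 U, counted per kb, did not separate the ligands from ERBB2. ERBB2 had 4.89 per kb, above TGFA at 4.76 and HBEGF at 1.37, the lowest of the 8 genes. AREG at 15.1, EREG at 7.61 and ADAM17 at 6.505 lay above ERBB2. EGFR and ERBB3 lay below the median of 2.90 per kb over all 3′ UTRs. These matches describe the annotated sequence and are not binding sites.

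**Figure D1:**
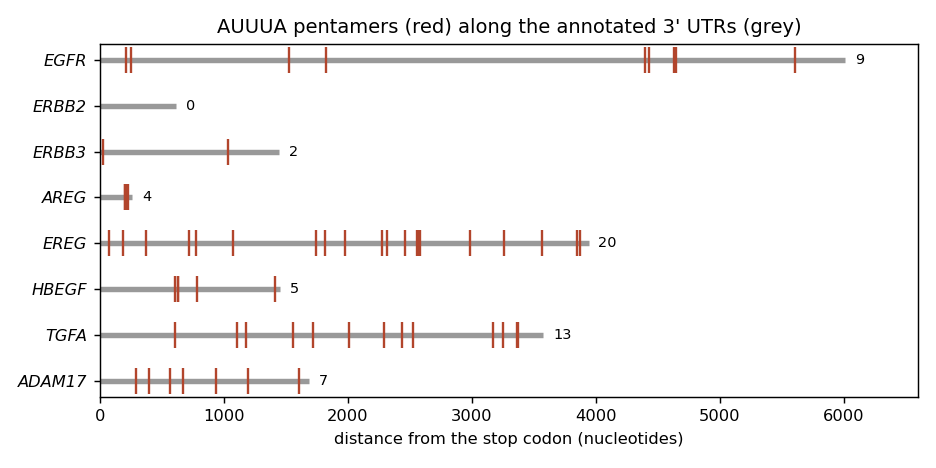
Position of each AUUUA pentamer (red ticks) along the annotated 3′ UTR (grey bars) of the 8 genes, as distance from the stop codon in nucleotides, with the number of pentamers at the end of each bar. EREG carries 20 spread along its length, AREG has 4 packed near the end of a short 3′ UTR, and ERBB2 has 0.

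The arrays differed in quality in a way that touches every value below. All 4 lay on 1 slide, with no saturated spot. The 75th percentile of the processed signal reached 1514 and 1271 for the immunoprecipitates and 714 for total RNA 1, but only 69.9 for total RNA 2, which is 10.2-fold below total RNA 1. On total RNA 2, 32.2% of spots were well above background, against 45.8% to 48.4% on the other arrays. The SD of the log2 difference between replicates over all genes was 0.89 for the TIA1 RIP arrays and 2.00 for the total RNA arrays. Each comparison is therefore given against both total RNA arrays and against each alone. All 7 markers of squamous epithelium looked up were detected on all 4 arrays. Of 8 markers of leukocytes, fibroblasts and endothelium, 3 (PTPRC, CD14 and VWF) also had a detected probe on each of the 4 arrays. For PTPRC no single probe was detected on all 4. A further 3 (CD3E, COL1A2 and PECAM1) were detected on none. The part of such signals in the results was not tested.

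Between TIA1 RIP and total RNA, the mean signals of the ligand mRNAs and ADAM17 were higher and those of the receptor mRNAs lower, but no member passed the test. Against total RNA 1 alone EGFR and ERBB3 were slightly above 0 and EREG below it. EREG, HBEGF and a probe of TGFA passed the detection filter only through TIA1 RIP, so their ratios rest in part on signals at background level. Levels are given as scaled log2 signal, the log2 processed signal minus the 75th percentile of its array, and differences between groups as log2 ratios of TIA1 RIP over total RNA. The mean log2 ratio ran from 1.36 for HBEGF to -2.25 for ERBB2. In the limma fit over all genes, 0 of the 8 members passed a Benjamini-Hochberg adjusted p of 0.05, as did 0% of all 13039 genes. At an unadjusted p under 0.05, 0 members were higher and 0 lower, against 1.1% and 4.02% of all genes. The adjusted p-values of the members lay between 0.776 and 0.903.

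EGFR, the founding receptor of the family, had scaled log2 signals of 1.34 and 2.67 on TIA1 RIP 1 and 2, and of 1.88 and 3.09 on total RNA 1 and 2. The groups overlapped, with replicate 2 the higher in each. The log2 ratio was -0.47 ± 0.90 (SE, n = 2 against 2 arrays; adjusted p = 0.903, limma), with a 95% interval from -2.60 to 1.65. Against total RNA 1 alone the log2 ratio was 0.13, and against total RNA 2 alone it was -1.08, so its sign rested on which total RNA array was used.

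ERBB2, the receptor with no known ligand and the favoured partner of the others, had the most negative log2 ratio of the group. TIA1 RIP 1 and 2 gave scaled log2 signals of 1.69 and 2.30, total RNA 1 gave 2.51 and total RNA 2 gave 5.98. Both TIA1 RIP arrays lay below both total RNA arrays, and the total RNA arrays lay far from each other. The log2 ratio was -2.25 ± 1.21 (SE, n = 2 against 2; adjusted p = 0.776, limma), with a 95% interval from -5.10 to 0.60. It was -0.51 against total RNA 1 and -3.99 against total RNA 2. Without total RNA 1, where the lone total RNA array is assumed to vary like the TIA1 RIP arrays, ERBB2 passed the threshold (adjusted p = 0.0195, limma), and under that setting 1849 genes were called higher and 2051 lower. Over all alternatives run, the adjusted p of ERBB2 lay between 0.0195 and 1.00. Before scaling, the processed signal of ERBB2 was 4900.4, 6263, 4062 and 4422 on TIA1 RIP 1 and 2 and total RNA 1 and 2. The unscaled signal thus hardly differed between the total RNA arrays, while the 75th percentile of the array did. The log2 difference between total RNA 2 and total RNA 1 for ERBB2 (3.48) was larger than for 96.6% of genes.

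ERBB3, which binds neuregulins but has little kinase activity of its own, overlapped between the groups. Scaled log2 signals of -0.25 and 0.64 in TIA1 RIP stood against 0.04 and 1.67 in total RNA. The log2 ratio was -0.66 ± 0.91 (SE, n = 2 against 2; adjusted p = 0.861, limma), with a 95% interval from -2.81 to 1.49. As for EGFR, it was just above 0 against total RNA 1 (0.16) and below 0 against total RNA 2 (-1.48).

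AREG (amphiregulin), a low-affinity EGFR ligand, was higher on both TIA1 RIP arrays than on both total RNA arrays. Its scaled log2 signals were 4.63 and 4.81 against 4.18 and 3.08. The log2 ratio was 1.10 ± 0.82 (SE, n = 2 against 2; adjusted p = 0.776, limma), with a 95% interval from -0.84 to 3.03. It was positive against each total RNA array, at 0.55 and 1.64. GRCh37 carries a near-identical copy, AREGB, whose longest transcript matches AREG at 1233 of 1234 aligned bases, so its probes may read both and the value is uncertain for AREG alone.

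EREG (epiregulin) and HBEGF (heparin-binding EGF-like growth factor), ligands of EGFR and ERBB4, shared a pattern that also split the TIA1 RIP arrays. EREG had scaled log2 signals of 0.04 and -1.69 on TIA1 RIP 1 and 2, and of -0.47 and -3.07 on total RNA 1 and 2. HBEGF had 1.75 and -0.52 on TIA1 RIP 1 and 2, and 0.56 and -2.06 on total RNA 1 and 2. For both genes TIA1 RIP 2 lay below total RNA 1, so the groups overlapped. Neither gene was well above background on total RNA 2, where the processed signal was 8.32 for EREG and 16.8 for HBEGF, so 1 of the 2 total RNA arrays measured them.

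The log2 ratio of EREG was 0.94 ± 1.13 (SE, n = 2 against 2; adjusted p = 0.843, limma; 95% interval from -1.72 to 3.61). That of HBEGF was 1.36 ± 1.20 (SE, n = 2 against 2; adjusted p = 0.792, limma; 95% interval from -1.46 to 4.19). Both rested on total RNA 2. Against total RNA 1 the log2 ratios were -0.36 for EREG and 0.05 for HBEGF, and against total RNA 2 they were 2.25 and 2.67.

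TGFA (transforming growth factor alpha), a high-affinity EGFR ligand, had the closest TIA1 RIP replicates, with scaled log2 signals of 0.17 and 0.18 against -0.92 and -0.03 on total RNA. On the mean of its probes both TIA1 RIP arrays were thus above both total RNA arrays. The log2 ratio was 0.65 ± 0.80 (SE, n = 2 against 2; adjusted p = 0.848, limma), with a 95% interval from -1.24 to 2.54, and was 1.10 and 0.20 against total RNA 1 and 2. This mean includes a probe not well above background on either total RNA array. On the probe detected on all 4 arrays the log2 ratio was -0.61.

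ADAM17, the protease that releases AREG, EREG, HBEGF and TGFA from the membrane, was the other member above total RNA on every array. It had scaled log2 signals of 2.14 and 2.65 in TIA1 RIP and of 1.65 and 1.22 in total RNA. The log2 ratio was 0.96 ± 0.79 (SE, n = 2 against 2; adjusted p = 0.785, limma), with a 95% interval from -0.90 to 2.81. It was 0.74 against total RNA 1 and 1.18 against total RNA 2, the narrowest range between the total RNA arrays in the group.

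**Figure D2:**
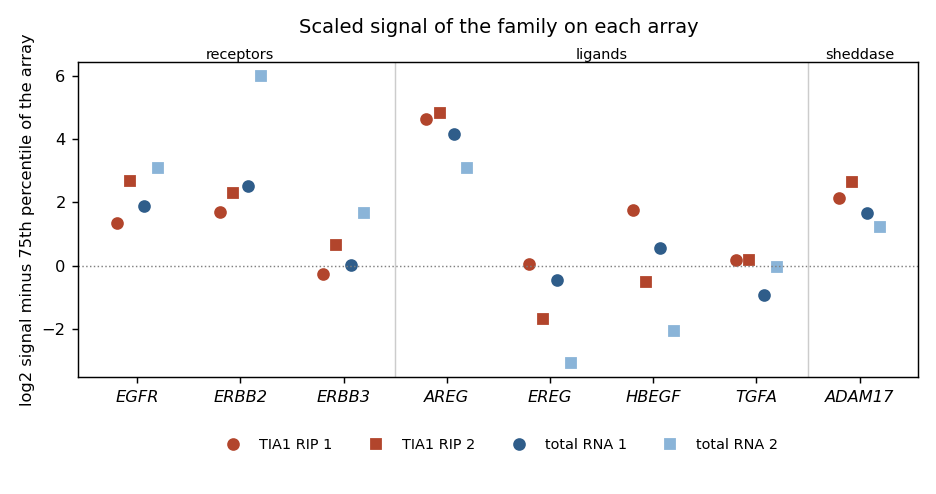
Scaled log2 signal (log2 processed signal minus the 75th percentile of the array, vertical axis) of each of the 8 genes on the 4 arrays, 1 point per array and no error bars. ERBB2 on total RNA 2 stands apart at 5.98, AREG and ADAM17 have both TIA1 RIP points above both total RNA points, and EREG and HBEGF spread widely within each group.

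In counts, 3 members (AREG, TGFA and ADAM17) were higher on both TIA1 RIP arrays than on both total RNA arrays, against 19.4% of all genes. TGFA is in this count only through its probe that was not well above background on either total RNA array. A single member (ERBB2) was lower on both, against 21.7% of all genes. The same 3 members were higher on both TIA1 RIP arrays than on total RNA 1, against 41.2% of genes, and 1 member (ERBB2) was lower, against 35.5%. Against total RNA 2 the 4 ligands and ADAM17 were higher on both TIA1 RIP arrays, where 39.6% of genes were, and the 3 receptors were lower, where 49.7% of genes were. Of the ligands, only AREG was higher there on probes detected on all 4 arrays. EREG and HBEGF were not well above background on total RNA 2, and the detected probe of TGFA gave a log2 ratio of -1.41. These shares over all genes are large, and a count over 8 genes says little beside them.

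**Figure D3:**
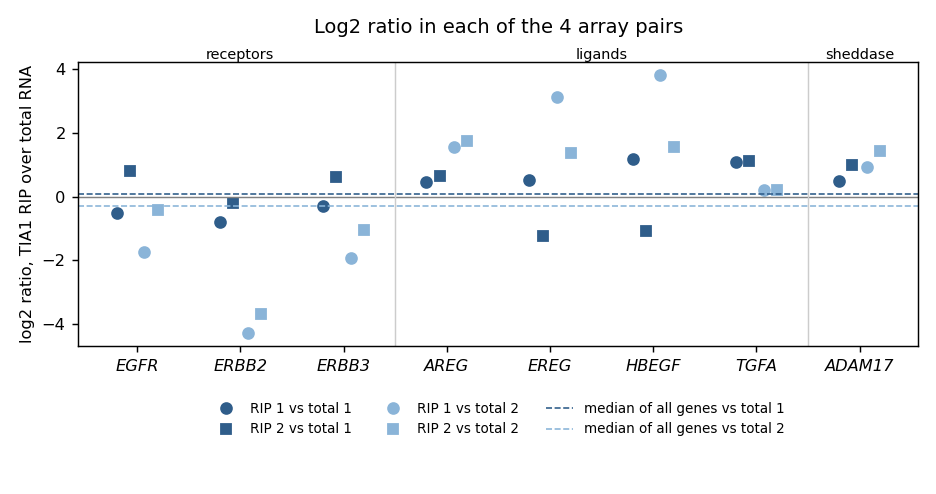
Log2 ratio of each TIA1 RIP array over each total RNA array (vertical axis) for the 8 genes, 1 point per pair of arrays, with the median over all genes against each total RNA array as dashed lines. Against total RNA 2 (light points) all receptors lie below 0 and all ligands above 0, with EREG, HBEGF and a TGFA probe not well above background there, while against total RNA 1 (dark points) EGFR, ERBB3, EREG and HBEGF have points on both sides.

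By role, the median log2 ratio was -0.66 over the 3 receptors and 1.02 over the 4 ligands, beside -0.04 over all genes. Against total RNA 1 the medians were 0.13 for receptors, 0.30 for ligands and 0.07 for all genes, which lie close together. Against total RNA 2 they were -1.48, 1.95 and -0.29. The ligand median against total RNA 2 rests in part on EREG and HBEGF, which were not well above background there. The larger distance between receptors and ligands against total RNA 2 remained without these genes, a subset picked after the values were seen. In that subset the mean over receptors minus the mean over ligands changed by -0.89 against total RNA 1 and by -3.10 against total RNA 2. The subset still holds the TGFA probe not well above background on either total RNA array, so it is not free of background signals. On probes detected on all 4 arrays, which leave AREG and TGFA as the 2 ligands, the ligand median was 0.37 against total RNA 1 and 0.12 against total RNA 2, beside 0.13 and -1.48 for the receptors. Over both total RNA arrays the ligand median was 0.24 on these probes. Against total RNA 2 alone AREG was at 1.64 on them and TGFA at -1.41.

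The difference between the mean over receptors and the mean over ligands was also formed on each array, where any scaling of the whole array cancels. From total RNA to TIA1 RIP this difference changed by -2.14 on the log2 scale, that is, receptors were lower relative to ligands in TIA1 RIP. It changed by -0.41 against total RNA 1 and by -3.87 against total RNA 2. Over the 4 pairs of arrays it was -1.36 (TIA1 RIP 1 and total RNA 1), 0.54 (TIA1 RIP 2 and total RNA 1), -4.82 (TIA1 RIP 1 and total RNA 2) and -2.92 (TIA1 RIP 2 and total RNA 2), so 1 pair went the other way. The pooled SD between replicates was 1.97, close to the change itself. No p is given, since 2 arrays against 2 cannot give an exact permutation p below 0.333. In subsets picked after the values were seen, the change was -1.58 without ERBB2 and -2.0 without EREG and HBEGF, and it kept its sign against each total RNA array alone. Both subsets still hold the TGFA probe not well above background on total RNA. On probes detected on all 4 arrays the change was -1.37, with -0.44 against total RNA 1 and -2.30 against total RNA 2.

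The unscaled signals showed where the total RNA arrays parted. The 75th percentile of total RNA 1 was 10.2-fold that of total RNA 2. The signal of the receptors was 0.919-fold (ERBB2), 3.28-fold (ERBB3) and 4.42-fold (EGFR) on total RNA 1 relative to total RNA 2, all below the array as a whole. That of ADAM17 was 13.8-fold and that of AREG 21.9-fold. No such fold is given for EREG and HBEGF, which were not well above background on total RNA 2, or for TGFA, which had a probe not well above background there. The TGFA probe detected on all 4 arrays had processed signals of 2163 on total RNA 1 and 642 on total RNA 2. It thus fell less than the array as a whole, as the receptors did and unlike AREG. The TIA1 RIP arrays, on which all members were detected, parted too: TIA1 RIP 2 minus TIA1 RIP 1 was 1.33 for EGFR, 0.61 for ERBB2 and 0.89 for ERBB3 on the log2 scale, but -1.73 for EREG and -2.27 for HBEGF. AREG and TGFA moved by 0.18 and 0.01 between these arrays.

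Across genes grouped by AUUUA density, the median log2 ratio rose with density while the median GC content fell, and the rise was mainly against total RNA 2. The ligands were denser in AUUUA than the receptors, but the GC content of the 2 roles overlapped, with HBEGF above EGFR. Transcript GC content was 60.4% for ERBB2, 51.3% for ERBB3, 50.6% for HBEGF, 47.8% for EGFR, 45.3% for AREG, 44.5% for TGFA, 42.1% for ADAM17 and 36.1% for EREG. Among kept genes with no AUUUA in the 3′ UTR (3499 genes, median GC 58.3%), the median log2 ratio was -0.10 against total RNA 1 and -1.40 against total RNA 2. Among those at or above the density of HBEGF, the lowest of the ligands (2351 genes, median GC 41.5%), it was 0.16 and 1.29. The 5701 genes between, with a median GC of 47.7%, had 0.12 and 0.20. AUUUA density and GC content thus moved together across genes and cannot be told apart here, and the part of either in the values of the group was not tested.

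Enrichment was also expressed relative to GAPDH, the abundant mRNA that the study took as a non-target, with a 2.5-fold threshold. GAPDH itself had scaled log2 signals of 6.49 and 6.69 in TIA1 RIP and of 7.67 and 9.63 in total RNA. Its log2 ratio was -2.06 (adjusted p = 0.776, limma), so every gene gains by the comparison, and the median log2 ratio over all genes was 2.02 relative to GAPDH in place of -0.04. By this measure 7 of 8 members passed 2.5-fold, as did 72.4% of all genes. The folds were 10.7 for HBEGF, 8.91 for AREG, 8.11 for ADAM17, 8.02 for EREG, 6.54 for TGFA, 3.0 for EGFR and 2.64 for ERBB3, and ERBB2 stayed below the threshold at 0.878. Those of HBEGF, EREG and TGFA rest in part on signals not well above background. On probes detected on all 4 arrays TGFA was 2.74-fold, between ERBB3 and EGFR, and HBEGF and EREG had no value. AREG and ADAM17 kept their folds on these probes. EGFR and ERBB3 thus stood above GAPDH while their log2 ratios on the array scale were below 0.

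Against total RNA 1 alone, 3 members passed 2.5-fold relative to GAPDH, TGFA at 4.52-fold, ADAM17 at 3.53-fold and AREG at 3.08-fold, beside 42.3% of genes. Against total RNA 2 alone, 7 members passed, beside 77.5% of genes. The folds of HBEGF (52.6) and EREG (39.1) there rest on signals not well above background. ERBB2 was 1.48-fold against total RNA 1 and 0.520-fold against total RNA 2. AREG and ADAM17 were past the threshold under each choice of total RNA array on probes detected on all 4 arrays. On its detected probe TGFA was 2.41-fold against total RNA 1, just under the threshold, and 3.10-fold against total RNA 2.

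Probes of the same gene did not always move together. The EGFR probe for the full-length transcript had log2 ratios of 0.08 against total RNA 1 and 0.11 against total RNA 2, the steadiest of all probes of the group. The other EGFR probes are listed under shorter transcripts, which encode soluble forms of the receptor. The first of them had 1.25 and -1.02, with a processed signal of 3550.0 on TIA1 RIP 1 and 19057 on TIA1 RIP 2, and the second had -0.93 and -2.33. The mean of EGFR below 0 thus came from a probe of a shorter transcript.

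The TGFA probes, both listed under the same transcript, disagreed. The first probe had processed signals of 546 and 480.2 on the TIA1 RIP arrays, but it was not well above background on either total RNA array (65.8 and 7.34). The second probe, detected on all 4 arrays at 5339.7, 4313, 2163 and 642, had a log2 ratio of -0.61, with 0.19 against total RNA 1 and -1.41 against total RNA 2. On the second probe alone TGFA was therefore not higher in TIA1 RIP than on total RNA 2. The AREG probes stood close together, at 0.45 and 0.64 against total RNA 1 and at 1.56 and 1.73 against total RNA 2. The ERBB3 probes gave 0.49 and -0.16 against total RNA 1 and -1.48 and -1.47 against total RNA 2.

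**Figure D4:**
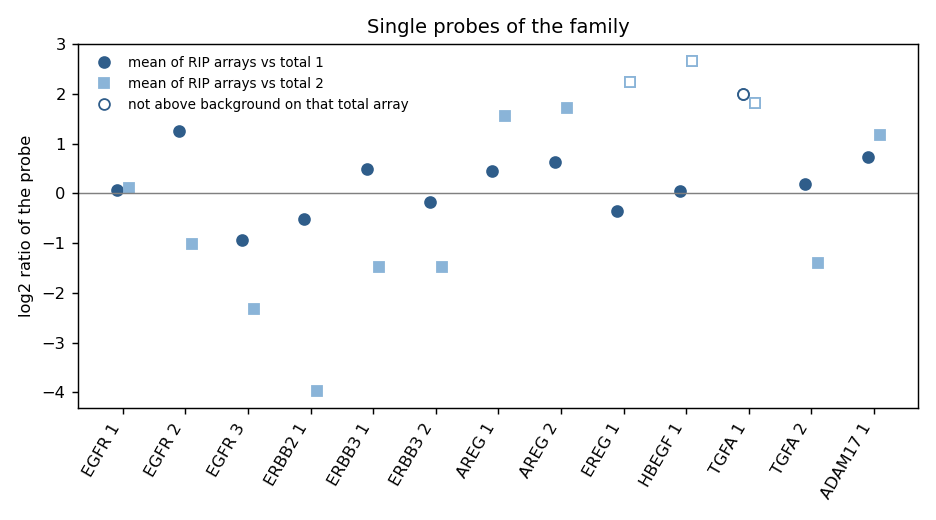
Log2 ratio of the mean of the TIA1 RIP arrays over total RNA 1 (dark circles) and over total RNA 2 (light squares) for each of the 13 kept probes, with open symbols where the probe was not well above background on that total RNA array. The first TGFA probe is open against both total RNA arrays, the second lies at -1.41 against total RNA 2, and the first EGFR probe lies near 0 against both.

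The wider pathway was read from a list of 50 further genes, all on the array. Of these genes, 41 were kept and 26 were detected on all 4 arrays by at least 1 probe. None passed an adjusted p of 0.05 or an unadjusted p under 0.05 in limma. Of the 41, 10 were higher and 6 lower on both TIA1 RIP arrays than on both total RNA arrays, beside 19.4% and 21.7% of all genes. Of these, 4 of the 10 and all 6 were detected on all 4 arrays. The median log2 ratio over the 41 was 0.21, with 0.29 and 0.16 against total RNA 1 and 2. The other receptor, ERBB4, and the ligands EGF, EPGN, NRG2 and NRG3 were detected on no array, so the EGFR ligands with a measured level here were AREG, EREG, HBEGF, TGFA and BTC (log2 ratio -0.01, detected on 3 arrays). Of the neuregulins, the ligands of ERBB3 and ERBB4, NRG1 had a log2 ratio of 0.29 and NRG4 of 0.32.

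Among the sheddases and their regulators, 3 of 5 were kept. ADAM10, the related protease that cuts EGF and betacellulin, had scaled log2 signals of 1.63 and 1.75 in TIA1 RIP and 1.20 and -0.60 in total RNA. On the mean of its 2 kept probes ADAM10 was thus higher on both TIA1 RIP arrays, as ADAM17 was. Its log2 ratio was the highest of the pathway genes with a probe detected on all 4 arrays (1.39, adjusted p = 0.776, limma). Only 1 of its 2 probes was detected on all 4 arrays, and the value on that probe alone is not given here. RHBDF2, the iRhom protein that carries ADAM17 to the cell surface, went the other way, with 3.93 and 3.36 in TIA1 RIP, 4.11 and 5.52 in total RNA and a log2 ratio of -1.17 (adjusted p = 0.776, limma).

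Of the 22 adaptors and proximal effectors, 20 were kept, 3 were higher and 4 lower on both TIA1 RIP arrays, beside 19.4% and 21.7% of all genes, and the median log2 ratio was 0.15. GRB2, the adaptor that links the receptors to RAS, was higher against each total RNA array, with log2 ratios of 1.06 and 0.96. CRKL, another SH2 and SH3 adaptor, gave 0.65 and 1.08. PIK3R2, a regulatory subunit of PI3-kinase, gave -0.49 and -2.53. Of the 15 inhibitors and turnover genes, all were kept, with 5 higher and 1 lower beside the same shares, and a median log2 ratio of 0.36. Of the 5 higher, PTPN1 alone was detected on all 4 arrays. The others (ERRFI1, CBLB, SPRED1 and SPRED2) were detected on 3, so this count rests in part on signals not well above background. CBLC, an epithelial ubiquitin ligase of the receptors, was the lower one, at -0.61 and -3.01 against total RNA 1 and 2.

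The genes with the pattern most like EGFR over the 4 arrays, by Euclidean distance between gene-centred scaled log2 signals, were UBE3B (0.13), GPC2 (0.20) and LINC01144 (0.20) among 9236 genes detected on all 4 arrays. Near EREG by the same measure were TCEAL1 (0.17) and PMM2 (0.21) among 9237, though EREG itself was not well above background on total RNA 2, so these distances rest in part on a background signal.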

How the data were processed

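RNA from KYSE180 anti-TIA1 immunoprecipitates and total RNA was hybridized by the authors to 2 + 2 single-colour arrays. The deposited files hold Agilent Feature Extraction (10.7 in the submitters' processing notes) intensity values for each spot, background-subtracted but not scaled between arrays, with spot flags as the other deposited columns used. The authors went on in GeneSpring; that scaling and a test are not given in the sources used here.

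Spots with deviant flags were left out of 58717, log2 signals were reduced by the 75th percentile of their array, and repeated spots of each probe were averaged. Detection required that a share of at least 0.5 of these spots be well above background, and probes were kept when detected on both arrays of a group (20099 of 50599 probes). Symbols (34510 probes) came from RefSeq, which gave names alone, and from GENCODE for GRCh37, the build that the file headers name. Kept probes of a gene were averaged. limma 3.58.1 in R 4.3.3 (lmFit, eBayes) tested 13039 genes, two-sided, with Benjamini-Hochberg adjustment, after checking on simulated data. The simulated spread was equal in both groups and smaller than on these arrays, so the check does not cover their spread. Sequence features used 1 annotated transcript per gene (Biopython 1.88, pandas 2.3.3), and figures used matplotlib 3.10.9 in Python 3.11.15. Named beside the 8 genes were GAPDH, a pathway list with the 3 highest and 3 lowest log2 ratios among its genes detected on all 4 arrays, further list members by detection, and the 3 genes nearest EGFR and EREG, of which 1 is not reported here. NRG4 and BTC were named after their values were seen. The genes and lists were chosen with earlier results of these data known. Alternatives covered background correction (normexp, offset 50, on median signals), scaling, filter, probe choice, fold, replicate block and each array left out. The number of arrays limits the precision.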

Additional observations from a re-analysis of the deposited data

How the results depend on the processing

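With 1 array left out in turn, the genes called higher by limma ranged from 0 to 1849 and those called lower from 0 to 2051, with both highest counts without total RNA 1 and 7 lower without TIA1 RIP 1. Members past the adjusted threshold ranged from 0 to 1 (ERBB2, without total RNA 1), and those past 2.5-fold relative to GAPDH from 3 to 7. The receptor median ranged from -1.48 to 0.13 and the ligand median from 0.30 to 1.95. The log2 ratio ranged from -1.14 to 0.19 for EGFR, from -1.48 to 0.16 for ERBB3 and from -0.36 to 2.25 for EREG, with EGFR at 0.19 without TIA1 RIP 1 and 0.13 without total RNA 2, ERBB3 at 0.16 and EREG at -0.36 without total RNA 2. With GAPDH of the same array subtracted, the receptor median was 1.40, the ligand median 3.08, EGFR 1.59 and ERBB3 1.40, which follows from GAPDH's own log2 ratio of -2.06. Quantile normalization left 3 members past 2.5-fold. The ligand median was 0.47 with normexp and 0.24 on probes detected on all 4 arrays, and the receptor minus ligand difference came to -1.34 and -1.37. The brightest probe alone turned EGFR to 0.10 and TGFA to -0.61, and probes detected on all 4 arrays gave TGFA -0.61 and no value for EREG and HBEGF. Of 102 alternatives for single members, 92 kept direction and call, 9 turned direction and 1 (ERBB2) passed the threshold. The receptor minus ligand difference kept its sign in all alternatives run, though TIA1 RIP 2 against total RNA 1 alone gave 0.54. A replicate block in the limma fit gave 57 higher and 299 lower genes, with 0 members among them; deviations of same-numbered arrays correlated at 0.45 with only 2 numbers, so the numbers were not taken to pair the arrays. No slide block was fitted, since all arrays lay on 1 slide. Signal over background on total RNA 2 limits EREG, HBEGF and TGFA, whose causes of change were not tested.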
